A study of Mus musculus with 4 samples.

Results

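The T-box factors, the RUNX factors and a group of effector repressors are 10 transcription factor genes: Tbx21 and Eomes (T-box), Runx1, Runx2, Runx3 and their partner Cbfb, and the repressors Prdm1, Zfp683, Bhlhe40 and Zeb2. They were taken by deposited gene symbol, without use of any measured value, and all 10 were found, in 14 of the 46799 rows of the expression tables. Rows that name the same gene and overlap were summed, which left 46155 genes. RNA was measured with SMARTseq2, a full-length cDNA method for small numbers of cells, in sorted γδ T cells, and the mice were C57Bl/6 males, 16 to 22 weeks old, whose epididymal adipose tissue was used. All mice carried PLZF-GFP, a reporter in which green fluorescence marks cells that express PLZF, the transcription factor encoded by Zbtb16. The groups were PLZF+ γδ T cells (libraries A7 and B7) and PLZF- γδ T cells (libraries A6 and B6), and each library came from a pool of 10 mice. The labels name no treatment, and the column name of every library carries the tag SFD, whose meaning is not given here. The library codes come from the table columns and are not explained in the labels, which are also silent on whether PLZF+ and PLZF- pools shared mice.

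T-bet, encoded by Tbx21, and its relative EOMES instruct the type 1 programme of lymphocytes, with interferon gamma, cytotoxic granules and receptors for IL-12 and IL-18. RUNX proteins bind DNA as dimers with CBFB and can activate or repress, depending on the partner proteins at a site, and in lymphocytes RUNX3 works with T-bet. Blimp-1 (Prdm1) and Hobit (Zfp683) are related zinc-finger repressors known for shutting off recirculation genes in tissue-resident lymphocytes, BHLHE40 represses through E-boxes and sustains cytokine production and residency, and ZEB2 acts with T-bet in terminal effector differentiation. Among γδ T cells, the PLZF+ cells of fat are known as IL-17 producers.

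The Zbtb16 message checked the sort: it reached 2899 and 2921 normalized counts in PLZF+ cells (A7, B7), against 310 and 699 in PLZF- cells (A6, B6) (log2 fold change 2.64 ± 0.31, SE; adjusted p = 0.00051, limma). Normalized counts are the authors' scaled read counts, on which 1 read is worth 0.619 in A7, 0.558 in B7, 1.69 in A6 and 1.22 in B6. Without the rRNA precursor Rn45s, the libraries held 1837507 and 2035063 reads in PLZF+ cells and 744570 and 981882 in PLZF- cells, so a PLZF- value rests on fewer reads. Of 7 marker lists for the cell types the gate could hold, 4 touch the results below. The γδ receptor row that names Tcrd held 2630 and 2525 normalized counts in PLZF+ cells and 656 and 844 in PLZF- cells, and the 6 tested of 10 genes on the γδ T cell list, of which 5 were higher in PLZF+ cells, were Cd3e, Cd3d, Cd3g, Cd247, Thy1 and Lat, which αβ T cells also express. The 4 receptor genes of that list (Trdc, Tcrg-C1, Tcrg-C2 and Tcrg-C4) matched no row by name. The natural killer and group 1 innate lymphoid list had all 12 tested of 14 genes lower in PLZF+ cells, with a summed level of 107 and 42.4 against 3990 and 3303. The group 2 innate lymphoid list had all 9 tested of 12 genes lower, with sums of 372 and 241 against 5064 and 3831. The plasmacytoid and dendritic list had 7 of 14 tested genes lower and 7 not past the threshold, with sums of 213 and 108 against 2346 and 1143. Klra8 (in a row shared with other Klra genes), Klre1, Klri2, Siglech and Spib, which mark natural killer and plasmacytoid dendritic cells, were at 0 in both PLZF+ libraries and present in both PLZF- libraries. Of these, Spib did not pass the test (adjusted p = 0.084, limma). Bst2 and Xcr1 of the plasmacytoid and dendritic list overlapped between subsets. Bst2 had 21.1 and 31.8 normalized counts in PLZF+ cells and 37.1 and 29.3 in PLZF- cells. Xcr1 had 22.9 and 19.5 in PLZF+ cells and 43.9 and 11.0 in PLZF- cells. Without A6 the natural killer list had 4 genes lower, the group 2 list 5 and the dendritic list 0, and without B6 these were 7, 7 and 2; the γδ T cell list had 1 gene higher without A7, 0 without B7 and 3 without A6. These lists move in the same direction as several genes below, and their part in the results was not tested. In a bulk library, fewer cells of a type and less RNA per cell cannot be told apart.

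**Figure D1:**
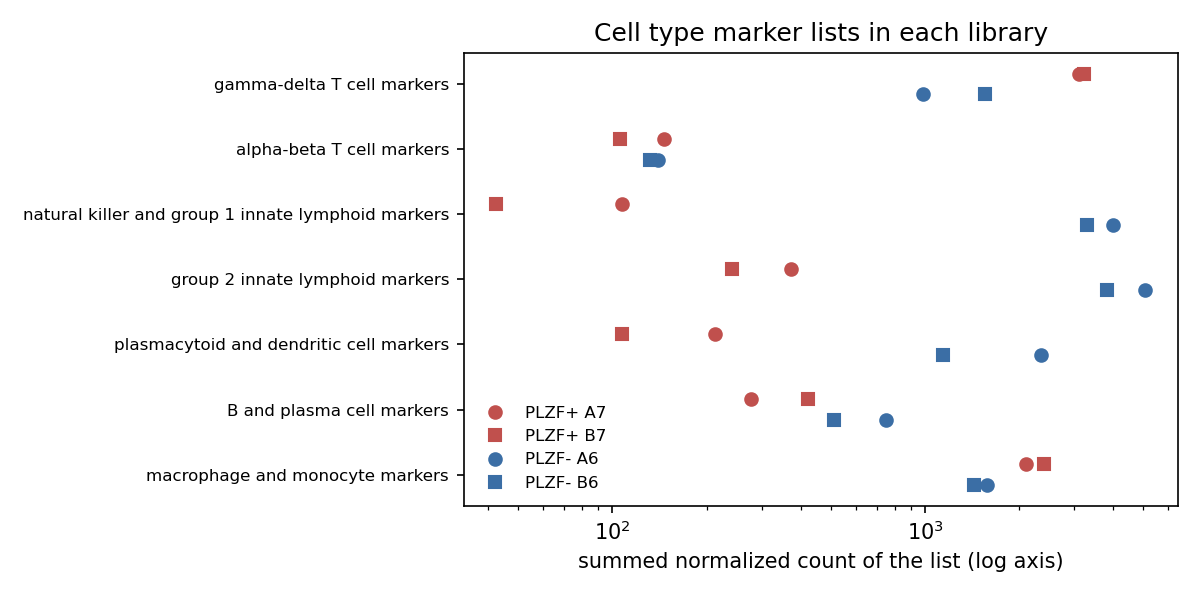
Summed normalized count of each of the 7 cell type marker lists (x axis, log scale; lists down the page) in each library (points), with PLZF+ libraries in red above PLZF- libraries in blue. The natural killer list sums to 107 and 42.4 in PLZF+ cells and to 3990 and 3303 in PLZF- cells, while the γδ T cell list sums to 3121 and 3229 in PLZF+ cells and to 982 and 1556 in PLZF- cells.

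Of the 10 factors, 4 were lower in PLZF+ cells, none was higher, 5 did not pass the test and Eomes was too low to be tested (limma on log2(normalized count + 1), genes with a mean of at least 10 normalized counts, adjusted p below 0.05). The 4 were Tbx21, Zfp683, Zeb2 and Bhlhe40. Of all 9279 genes tested, 4.98% were lower, 2.47% were higher and 7.45% changed in either direction. None of the 9 tested factors was higher by the q-values of the authors' deposited Cuffdiff table either, where 1.82% of loci were higher. With shares this low, an absence among 9 factors says little about them. The libraries of the 2 subsets did not overlap for 4 of the 9 tested factors, the 4 above, all lower in PLZF+ cells. Of all tested genes, 27.2% lay lower without overlap. Eomes, which was not tested, also lay lower without overlap. The log2 fold change was below 0 for 8 of the 9 tested factors, with a median of -0.46 against -0.03 over all tested genes. None of the 4 passed when limma was run without its trend and robust options (adjusted p 0.084 to 0.33).

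**Figure D2:**
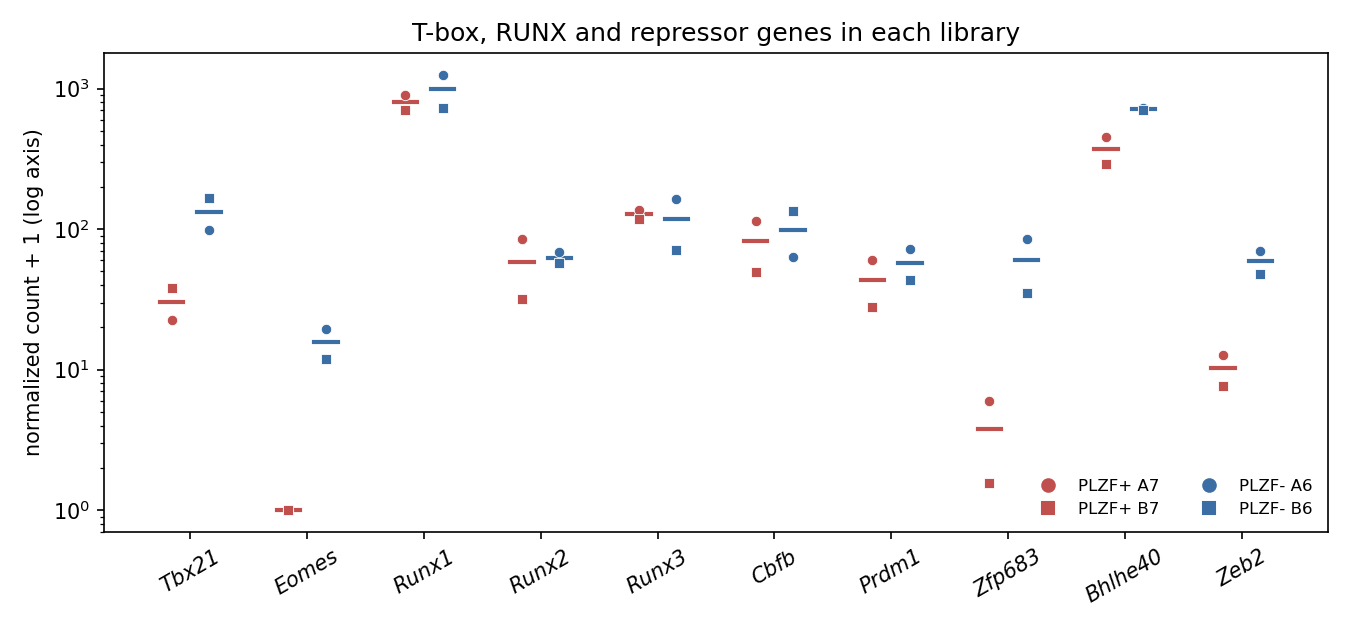
Normalized count plus 1 of each of the 10 factors (y axis, log scale) in every library (points) with the mean of each subset (lines), PLZF+ in red left of PLZF- in blue. Tbx21, Eomes, Zfp683, Bhlhe40 and Zeb2 have both PLZF+ points under both PLZF- points, and the points of the other 5 factors overlap.

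The 3 genes that encode RUNX DNA-binding proteins carry a shared piece of sequence at their start sites, shown here because all 3 share it. The RUNX core site is TGTGGT, which reads ACCACA on the other strand, and a pair of them spaced by 2 bases is written ACCACANNACCACA. Both strands of the RefSeq promoter windows (GRCm38.p6, 250 bases before to 50 after each start, 32817 windows) were searched, and 7 windows held the pair, which is 0.0213%. One window each of Runx1, Runx2 and Runx3 was among those 7. The pair was searched for after the single sites had been seen. The stretches below are 5′ to 3′ on the strand of the gene, and capitals mark the ACCACA letters.
Runx1, chr16:92826025-92826054, minus strand: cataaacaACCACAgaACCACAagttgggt
Runx2, chr17:44814583-44814612, minus strand: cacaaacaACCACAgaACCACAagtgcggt
Runx3, chr4:135120503-135120532, plus strand: gtccctcaACCACAgaACCACAaggccagg
The first capital lies 29 bases into the transcript of Runx1, 24 bases into that of Runx2 and 134 bases before the start of Runx3. A single TGTGGT was found in 16.8% of all windows and in 3 of the 13 windows of 8 factors (all but Zfp683 and Bhlhe40), again those of the 3 RUNX genes. A match is a run of letters and not a shown binding site.

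The promoter of Tbx21 was searched for the letters bound by the repressors of this group. CACCTG, the E-box of ZEB factors, occurs in 20.2% of all windows. GNGAAAG was taken as a loose form of the core of the Blimp-1 site, with any base at N, and occurs in 22.6%. The Tbx21 window held both, CACCTG once and GNGAAAG at 2 places, and no match overlapped another. The share of all windows that hold both is not given here. The stretch from 220 to 151 bases before the start is shown, with the ZEB letters first (read as CAGGTG on this strand) and the Blimp-1 letters second (read as CTTTCCC).
Tbx21, chr11:97115482-97115551, minus strand: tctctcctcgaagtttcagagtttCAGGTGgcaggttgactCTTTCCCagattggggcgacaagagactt
The other match of the Blimp-1 letters in Tbx21 begins 23 bases into the transcript. CACCTG was found in windows of 4 factors (Tbx21, Runx1, Runx3 and Prdm1) and GNGAAAG in windows of 3 (Tbx21, Runx2 and Zeb2). The E-box CACGTG of BHLHE40, present in 7.15% of all windows, was found in that of Runx1. The T-box letters GGTGTGA, present in 3.98% of all windows, were found in none of the 13 windows.

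Tbx21 (T-bet, chromosome 11, 97098071 to 97115331, minus strand; all gene coordinates are GENCODE M21 on GRCm38) was lower in PLZF+ cells. It had 21.7 and 36.8 normalized counts in PLZF+ cells (A7, B7), against 97.8 and 165 in PLZF- cells (A6, B6). Both PLZF+ libraries lay under both PLZF- libraries, and the message was detected in all 4. The mean was 29.3 ± 10.7 in PLZF+ cells and 131 ± 47.2 in PLZF- cells (SD, n = 2 each), a log2 fold change of -2.13 ± 0.48 (SE; 95% interval -3.16 to -1.09; adjusted p = 0.016, limma). In FPKM, which divides by transcript length, Tbx21 stood at 5.51 and 9.04 in PLZF+ cells and at 24.0 and 45.0 in PLZF- cells. In the authors' deposited table its q-value was 0.0286. Tbx21 no longer passed without A7, B7, A6 or B6 (adjusted p 0.081 to 0.21, log2 fold change -2.50 to -1.75) and when FPKM was tested in place of counts (adjusted p = 0.068).

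Eomes (chromosome 9, 118478212 to 118486132, plus strand) encodes the T-box factor that accompanies T-bet in natural killer cells and memory CD8 T cells. Eomes had no read in PLZF+ cells (A7, B7), against 18.6 and 11.0 normalized counts in PLZF- cells (A6, B6), which are 11 and 9 reads. A count of 0 allows up to 3 reads per library, which puts Eomes at least 8.36-fold lower in PLZF+ cells, with counting error alone considered. Its mean was under the minimum of the test, and with that minimum lifted its adjusted p was 0.096.

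The list of genes known to respond to T-bet or EOMES had 22 members, of which 17 were high enough to be tested. Of these 17, 14 were lower in PLZF+ cells, 1 was higher and 2 did not pass, with a median log2 fold change of -5.15 against -0.03 over all tested genes. Without library A6 the list had 7 genes lower, and without B6 it had 8. Nkg7, a protein of cytotoxic granules, had 7.43 and 7.25 normalized counts in PLZF+ cells against 447 and 493 in PLZF- cells (log2 fold change -5.82, adjusted p = 1.4e-05). Il12rb2, the signalling chain of the IL-12 receptor, had 1.24 and 3.35 in PLZF+ cells against 501 and 467 in PLZF- cells (-7.28, adjusted p = 1.4e-05). Both genes rested on a few reads in PLZF+ cells and were abundant in PLZF- cells. Fasl, the death ligand, had 0 and 1.12 normalized counts in PLZF+ cells against 385 and 261 in PLZF- cells (adjusted p = 4.0e-05). Those PLZF+ values are 2 reads in all, and the PLZF- level was 578 times theirs, with a counting interval of 159 to 4792. The chemokine Ccl5 had 9.91 and 1.12 in PLZF+ cells against 516 and 396 in PLZF- cells (-6.56, adjusted p = 8.8e-05).

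The exceptions in the list of T-bet and EOMES targets were Il18r1, Ifng and Cxcr3. Il18r1, a chain of the IL-18 receptor, was higher in PLZF+ cells, at 1088 and 886 normalized counts against 376 and 642 in PLZF- cells (log2 fold change 0.997, adjusted p = 0.031), and the call was lost without A7, without B7, without A6 and in FPKM (adjusted p = 0.23). Its partner chain Il18rap went the other way, at 203 and 317 in PLZF+ cells against 1350 and 1102 in PLZF- cells (-2.26). Cxcr3, a chemokine receptor of type 1 cells, differed by less than the spread between libraries, at 170 and 217 in PLZF+ cells and 152 and 262 in PLZF- cells (-0.06). Ifng, the interferon gamma gene, had 0.619 and 0 in PLZF+ cells against 48.9 and 4.88 in PLZF- cells, so the PLZF- libraries themselves lay far apart, and it did not pass (adjusted p = 0.28). The other genes of the list that were lower in PLZF+ cells included the granule genes Gzma, Gzmb and Prf1. Klrg1 of this list is also on the group 2 innate lymphoid list, and the natural killer list, whose sums are given above, moved in the same direction.

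**Figure D3:**
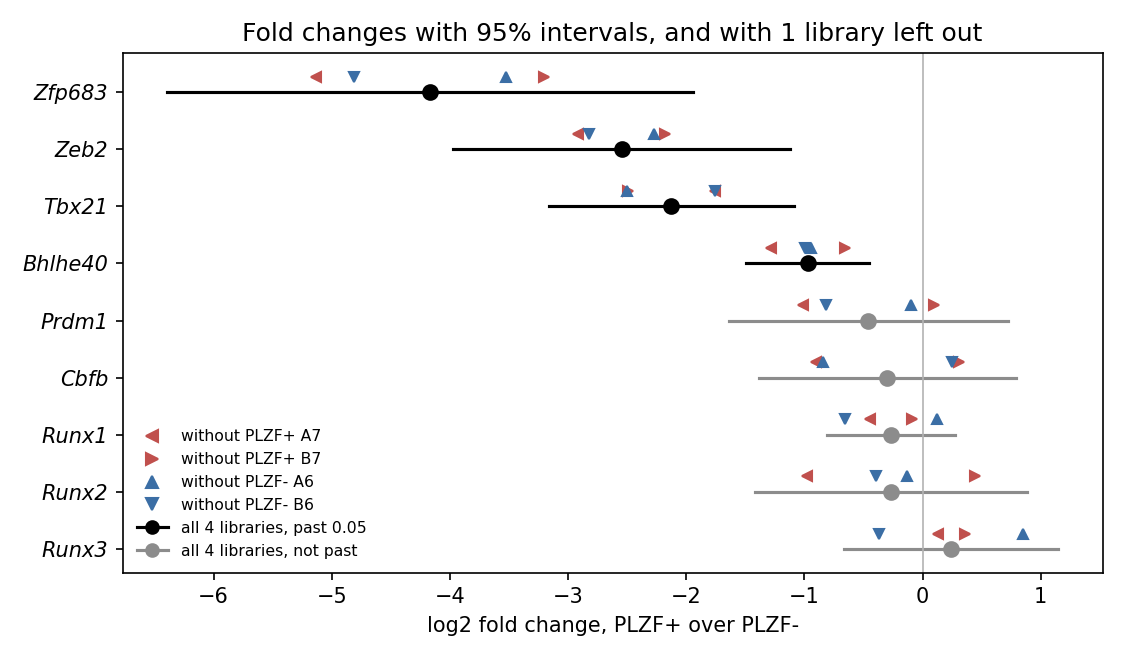
Log2 fold change, PLZF+ over PLZF- (x axis), of the 9 tested factors, as limma estimates from all 4 libraries (round points, black where the adjusted p is below 0.05 and grey where not) with 95% intervals (lines), and with 1 library left out (triangles). The intervals of Tbx21, Zfp683, Zeb2 and Bhlhe40 and all their triangles lie below 0, while the intervals of Runx1, Runx2, Runx3, Cbfb and Prdm1 span 0 and so do their triangles.

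The RUNX genes and Cbfb did not pass the test. Runx3 (chromosome 4, 135120652 to 135177990, plus strand), the RUNX gene of CD8 T cells and innate lymphocytes, had 137 and 117 normalized counts in PLZF+ cells and 164 and 69.5 in PLZF- cells. Its PLZF+ libraries lay between its PLZF- libraries, with a log2 fold change of 0.24 (95% interval -0.66 to 1.15; adjusted p = 0.79). Runx2 (chromosome 17, 44495987 to 44814797, minus strand), known from bone and from memory T cells, had 84.2 and 30.7 in PLZF+ cells and 67.5 and 56.1 in PLZF- cells. Its PLZF- libraries lay between its PLZF+ libraries, and its interval ran from -1.42 to 0.88 (log2 fold change -0.27, adjusted p = 0.82). The Runx2 row runs on to 45119284, beyond the gene. Cbfb (chromosome 8, 105170674 to 105217989, plus strand), the partner that all RUNX proteins need for stable DNA binding, had 113 and 48.5 in PLZF+ cells and 62.4 and 134 in PLZF- cells. The ranges overlapped, with a log2 fold change of -0.30 (95% interval -1.39 to 0.79; adjusted p = 0.78). Intervals of this width do not show that the levels were equal.

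Runx1 (chromosome 16, 92601466 to 92826149, minus strand), the RUNX gene of early haematopoiesis and T cell development, was spread over 5 deposited rows of the same span. Their sum was 897 and 704 normalized counts in PLZF+ cells and 1255 and 729 in PLZF- cells (log2 fold change -0.27; 95% interval -0.81 to 0.28; adjusted p = 0.60). The PLZF- libraries differed from each other by more than the means of the 2 subsets did. Rows 1 and 2 stand among rows that all carry a gene name, mostly of the minus strand. Row 2, the one of that pair with more reads, had 191 and 132 in PLZF+ cells and 181 and 129 in PLZF- cells (0.06, adjusted p = 0.94). Rows 3 to 5 stand among rows of which 1 of 15 to 1 of 17 has a gene name, and together they held 78.5% and 79.3% of the sum in PLZF+ cells and 85.5% and 82.1% in PLZF- cells. Of these, row 3 had 104 and 100 in PLZF+ cells against 194 and 168 in PLZF- cells, without overlap (-0.82, unadjusted p = 0.023, adjusted p = 0.16). Row 4 had 383 and 273 in PLZF+ cells and 526 and 244 in PLZF- cells, and row 5 had 217 and 185 in PLZF+ cells and 353 and 187 in PLZF- cells. Rows 4 and 5 overlapped between subsets, and row 1 held few reads, with 1.86 and 13.4 in PLZF+ cells and 1.69 and 1.22 in PLZF- cells. No source used here gives the strand setting of the counting, so sense and antisense reads over Runx1 cannot be told apart, and the RUNX level per length below uses row 2.

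**Figure D4:**
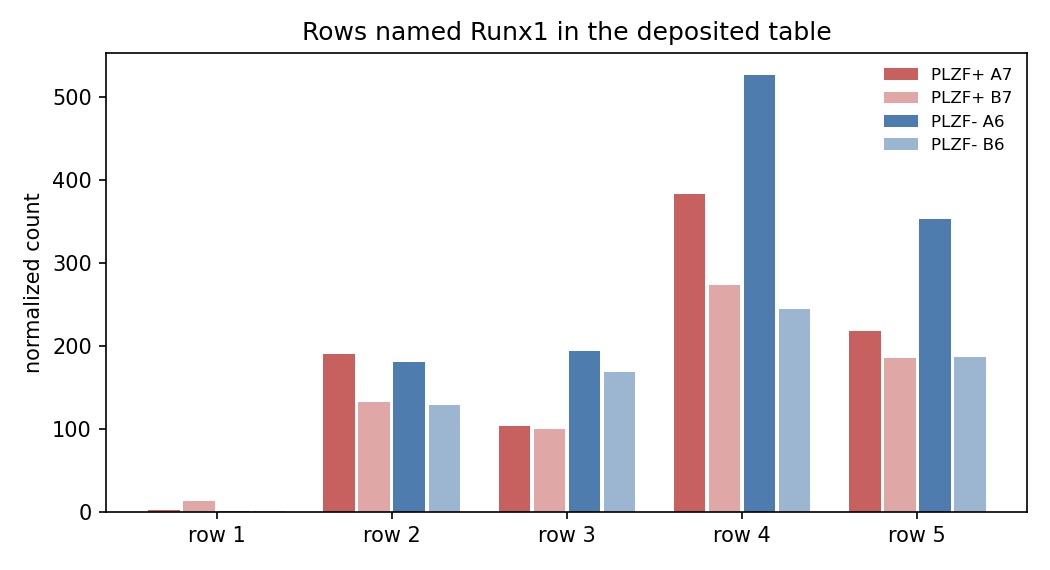
Normalized count (y axis) of each of the 5 deposited rows of Runx1 (x axis), with 1 bar per library, PLZF+ in red left of PLZF- in blue. Both PLZF+ bars of row 3, at 104 and 100, are shorter than both PLZF- bars, at 194 and 168, and row 2 has like values in both subsets.

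The 3 RUNX genes together stood at 49.98 and 34.7 FPKM in PLZF+ cells and at 51.7 and 32.7 FPKM in PLZF- cells. Runx3 made up 41.2% and 48.6% of that sum in PLZF+ cells and 46.4% and 32.5% in PLZF- cells. Runx1 made up 40.2% and 42.3% in PLZF+ cells and 39.7% and 45.6% in PLZF- cells, and Runx2 was the least in every library. Counted this way, the RUNX sum and its makeup overlapped between subsets. Summed over its 5 rows, Runx1 alone stood at 71.4 and 73.8 FPKM in PLZF+ cells. In PLZF- cells that sum was 101 and 64.0 FPKM, so the total and the shares depend on the row used. The ratio of Tbx21 to Runx3, in FPKM, was 0.267 and 0.535 in PLZF+ cells and 1.003 and 4.24 in PLZF- cells.

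Of 18 genes listed as RUNX partners, co-repressors or modifiers, 14 were tested. One, the kinase gene Hipk2, was lower in PLZF+ cells, at 14.2 and 7.25 normalized counts against 70.9 and 85.4 in PLZF- cells (log2 fold change -2.81, adjusted p = 0.013), and it no longer passed without A7, B7, A6 or B6. In FPKM it stood at 3.93 and 1.61 in PLZF+ cells and at 5.26 and 7.78 in PLZF- cells, a smaller log2 fold change of -1.31 that did not pass (adjusted p = 0.42). The other 13 did not pass, and the median of the list was -0.14 against -0.03 over all tested genes. Runx1t1, the co-repressor known from its fusion with RUNX1 in human leukaemia, had no read in PLZF+ cells against 28.7 and 46.3 in PLZF- cells, at least 21.2-fold lower with counting error alone considered (adjusted p = 0.051). Ets1, which binds DNA together with RUNX proteins, had 1395 and 1128 in PLZF+ cells and 1653 and 1807 in PLZF- cells (-0.46, adjusted p = 0.16).

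Among 15 genes listed as RUNX targets, 9 were tested, of which 3 were higher and 1 lower in PLZF+ cells, with a median log2 fold change of 0.55 against -0.03 over all tested genes. Ncr1, which encodes the natural killer receptor NKp46 and is also on the natural killer list, had 3.72 and 3.91 normalized counts in PLZF+ cells against 693 and 694 in PLZF- cells (-7.17, adjusted p = 5.6e-06). The 3 higher genes were Lat, Cd3e and Itgb7. Lat, an adaptor of the T cell receptor, had 356 and 325 in PLZF+ cells against 91.1 and 116 in PLZF- cells (1.72, adjusted p = 0.0026). Cd3e, a signalling chain of the same receptor, had 552 and 661 in PLZF+ cells against 182 and 367 in PLZF- cells (1.22, adjusted p = 0.028), and the integrin chain Itgb7 had 647 and 934 against 263 and 491 (1.11, adjusted p = 0.038). Lat and Cd3e are also on the γδ T cell list, and all 3 calls were lost without A7 and without B7, those of Cd3e and Itgb7 also without A6 and in FPKM (adjusted p = 0.12 for Cd3e and 0.16 for Itgb7). Cd4 and Cd8a, whose repression and activation by RUNX is well known in thymocytes, had no read in PLZF+ cells against 13.5 and 4.88 for Cd4 and 11.8 and 1.22 for Cd8a in PLZF- cells.

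Prdm1 (Blimp-1, chromosome 10, 44437177 to 44528501, minus strand) did not pass the test, and its relative Zfp683 (Hobit, chromosome 4, 134053838 to 134058996, plus strand) was lower in PLZF+ cells. Prdm1 had 58.8 and 26.8 normalized counts in PLZF+ cells and 70.9 and 42.7 in PLZF- cells, with overlapping ranges (log2 fold change -0.46; 95% interval -1.64 to 0.73; adjusted p = 0.69). Zfp683 had 4.95 and 0.558 normalized counts in PLZF+ cells against 84.4 and 34.1 in PLZF- cells. In reads these are 8 and 1 in PLZF+ cells against 50 and 28 in PLZF- cells, so Hobit message was near the detection limit in B7. The mean of Zfp683 was 2.76 ± 3.11 normalized counts in PLZF+ cells and 59.2 ± 35.5 in PLZF- cells (SD, n = 2 each), a log2 fold change of -4.17 ± 1.02 (SE; 95% interval -6.39 to -1.94; adjusted p = 0.026, limma). The ratio of Zfp683 to Prdm1 in FPKM was 0.154 and 0.0377 in PLZF+ cells and 2.73 and 0.591 in PLZF- cells. The call of Zfp683 was kept without A7 and lost without B7, A6 or B6 (adjusted p 0.043 to 0.31 over the 4), and it was lost in FPKM (adjusted p = 0.082). In the authors' deposited table the q-value of Zfp683 was 0.621.

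The genes known to be controlled by Blimp-1 or Hobit were 21, of which 14 were tested, with 4 lower, 1 higher, 9 not past and a median log2 fold change of -1.69 against -0.03 over all tested genes. Without A6 the list had 1 gene lower. Bach2, a repressor of effector differentiation whose locus row also holds a neighbouring transcript, had 42.5 and 29.6 normalized counts in PLZF+ cells against 269 and 224 in PLZF- cells (log2 fold change -2.76, adjusted p = 0.00066). The residency integrin Itga1, in a row shared with Pelo, had 17.3 and 8.37 in PLZF+ cells against 268 and 133 in PLZF- cells (-3.86, adjusted p = 0.00081). The call of Itga1 was lost without A6, and its log2 fold change was -3.05 in FPKM. Cxcr6, a chemokine receptor of resident lymphocytes, was the gene that was higher in PLZF+ cells, at 3320 and 3470 against 1345 and 1537 in PLZF- cells (1.24, adjusted p = 0.00038), a call lost without B7. The recirculation genes S1pr1, Klf2, Ccr7 and Tcf7, which Blimp-1 and Hobit are known to repress, did not pass.

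Bhlhe40 (chromosome 6, 108660629 to 108666925, plus strand) was lower in PLZF+ cells. It had 450 and 292 normalized counts in PLZF+ cells (A7, B7), against 725 and 699 in PLZF- cells (A6, B6). Both PLZF- libraries lay above both PLZF+ libraries and close to each other. With 430 to 727 reads per library this was the most deeply measured of the lower factors. The Bhlhe40 row spans 108577036 to 108666925 and so begins well before the gene, and reads from outside the gene cannot be told apart. The mean was 371 ± 112 in PLZF+ cells and 712 ± 18.8 in PLZF- cells (SD, n = 2 each), a log2 fold change of -0.97 ± 0.24 (SE; 95% interval -1.49 to -0.45; adjusted p = 0.027, limma). In the authors' deposited table its q-value was 0.0227. Bhlhe40 no longer passed without A7, B7, A6 or B6 (adjusted p 0.070 to 0.44), with no minimum level (0.056), with libraries scaled to equal totals (0.057) and in FPKM (0.10).

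Zeb2 (chromosome 2, 44983632 to 45117395, minus strand), in a row that also names the microRNA gene Mir5129, was lower in PLZF+ cells. It had 11.8 and 6.70 normalized counts in PLZF+ cells against 69.2 and 46.9 in PLZF- cells, which are 19 and 12 reads against 41 and 38.4. The subsets did not overlap, but every library rested on few reads. The mean was 9.23 ± 3.59 in PLZF+ cells and 58.0 ± 15.8 in PLZF- cells (SD, n = 2 each), a log2 fold change of -2.55 ± 0.65 (SE; 95% interval -3.97 to -1.12; adjusted p = 0.034, limma). Zeb2 no longer passed without A7, B7, A6 or B6 (adjusted p 0.083 to 0.27), with no minimum level (0.066) and in FPKM (0.28), and the q-value of the authors' deposited table was 0.475. ZEB2 is also a known factor of plasmacytoid dendritic cells, and the sums of that marker list are given above. Its relative Zeb1 did not pass, at 1067 and 961 normalized counts in PLZF+ cells and 1019 and 798 in PLZF- cells (log2 fold change 0.17).

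The list of genes known to be controlled by BHLHE40 or ZEB2 had 16 members, of which 10 were tested, with 5 lower, none higher and 5 not past. Its median log2 fold change was -3.33 against -0.03 over all tested genes, and without A6 it had 1 gene lower, without B6 2 genes. Csf2, the GM-CSF gene that BHLHE40 sustains in T cells, had 8.05 and 1.12 normalized counts in PLZF+ cells against 420 and 412 in PLZF- cells (-6.57, adjusted p = 6.9e-05). Klrg1, a marker of terminal effectors, had 4.95 and 0 in PLZF+ cells against 152 and 221 in PLZF- cells (-6.24, adjusted p = 0.00066). Cd24a, a surface glycoprotein of immature lymphocytes, had 1.24 and 0 in PLZF+ cells against 132 and 91.5 in PLZF- cells (adjusted p = 0.0014). The PLZF+ values of Cd24a are 2 reads, and the PLZF- level was 180 times theirs, with a counting interval of 49.0 to 1500.3. The calls of Klrg1 and Cd24a were lost without A6 and without B6. Il10, which BHLHE40 is known to repress, had no read in any library, and Bhlhe41, the relative of BHLHE40, had 1 read in all.

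Levels per length put the factors in order, with Runx1 taken by its row 2, which held 14.4% to 21.3% of its summed counts. In PLZF+ cells Bhlhe40 was highest with a mean of 72.5 FPKM, above and apart from Runx3 (18.8 FPKM), Cbfb (17.7 FPKM) and Runx1 (17.4 FPKM), which overlapped in that order. Next and apart came Tbx21 (7.27 FPKM), Runx2 (6.22 FPKM) and Prdm1 (6.05 FPKM), whose ranges overlapped. Zeb2 (1.25 FPKM) and Zfp683 (0.708 FPKM) overlapped further down, and Eomes was at 0. In PLZF- cells Bhlhe40 was again highest, with a mean of 152 FPKM, and Tbx21 was next with 34.5 FPKM. It was followed by Cbfb (21.8 FPKM), Runx1 (17.7 FPKM), Runx3 (17.3 FPKM), Zfp683 (15.4 FPKM) and Prdm1 (11.5 FPKM), where each overlapped its neighbour. Runx2 (7.17 FPKM), Zeb2 (5.65 FPKM) and Eomes (2.41 FPKM) closed the order, each apart from the next. Tbx21 thus stood below Runx3, Cbfb and row 2 of Runx1 in PLZF+ cells. It ranked above them by mean in PLZF- cells, where its range overlapped that of Cbfb. With its 5 rows summed, Runx1 stood at 71.4 and 73.8 FPKM in PLZF+ cells and at 101 and 64.0 FPKM in PLZF- cells. That sum lay above Tbx21 in both subsets and overlapped Bhlhe40 (87.7 and 57.2 FPKM) in PLZF+ cells.

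**Figure D5:**
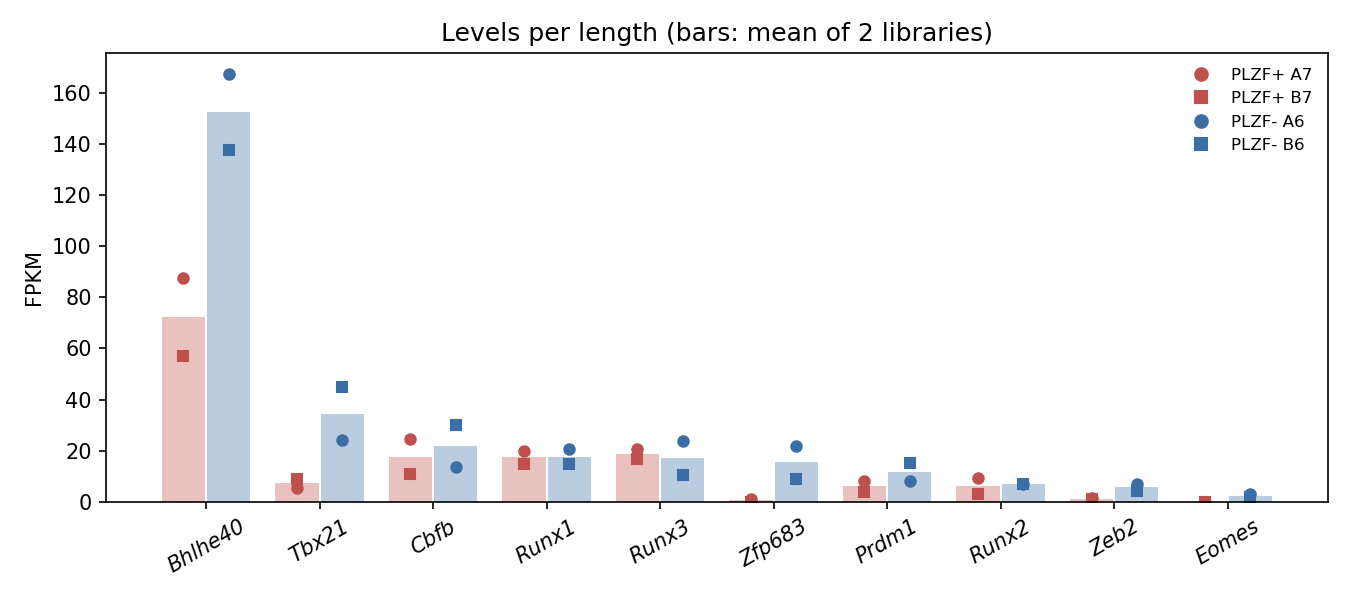
FPKM (y axis, linear from 0) of each factor, with bars for the mean of each subset and points for its 2 libraries, PLZF+ in red left of PLZF- in blue; Runx1 is its row 2. Bhlhe40 is highest in both subsets, with means of 72.5 FPKM in PLZF+ cells and 152 FPKM in PLZF- cells, and Eomes has no read in PLZF+ cells.

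A list of 21 other lineage-instructing factors gave the setting of these 10 genes, with 16 tested, 4 higher, 4 lower and 8 not past. Of the 4 higher, 0 passed without A7 or without B7 and 2 without A6, and of the 4 lower, 1 passed without A6 and 2 without A7 or B6. Sox13, a factor of IL-17 γδ T cells, was higher, at 381 and 314 normalized counts in PLZF+ cells against 30.4 and 84.2 in PLZF- cells (log2 fold change 2.75, adjusted p = 0.0018). Sox13 no longer passed without A7 and without B7. Lower were the row of Gata3, the type 2 factor, at 111 and 101 in PLZF+ cells against 719 and 790 in PLZF- cells (-2.82, adjusted p = 2.5e-05), and Irf8, at 4.95 and 16.2 against 241 and 159 (-4.28, adjusted p = 0.00070, lost without A6). Gata3 is also on the group 2 innate lymphoid list and Irf8 on the dendritic list.

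For each factor that was lower in PLZF+ cells, the named genes with the most similar profile over the 4 libraries were looked up, by the Euclidean distance between centred log2 values. The nearest to Bhlhe40 were Mef2a, a MADS-box factor, at a distance of 0.054, Aff1 at 0.081 and Hace1 at 0.12. Mef2a had 130 and 82.0 normalized counts in PLZF+ cells against 199 and 198 in PLZF- cells. The nearest to Zeb2 were Nab1, a corepressor of EGR factors, at 0.20, Cemip2 at 0.23 and Ifi208 at 0.27. The nearest to Tbx21 were Timm22 at 0.32, Cep290 at 0.32 and the Nop58 row, which also names Snord70, at 0.40. Those of Zfp683 were Patj at 0.23, Tex15 at 0.32 and Cyp11a1 at 0.48. Of these similar genes only Aff1, Nab1, Cemip2 and Ifi208 passed the test themselves (adjusted p 0.013 to 0.038, limma). None of those nearest to Tbx21 or Zfp683 passed. All these distances are descriptions over 4 libraries.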

How the data were processed

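RNA was sequenced from 2 PLZF+ and 2 PLZF- libraries. Per the submitters' processing notes, the genome build was mm10 and the tools named are HISAT 0.1.6, SAMtools 1.2, Cufflinks 1.2 and Cuffdiff. The annotation used for counting, and whether it used strand, is not given in the sources used here. Deposited by the authors were Cuffnorm normalized counts (a signal, scaled estimates and not raw counts), Cuffnorm FPKM, and p-values and q-values of Cuffdiff for each locus. Between 92.4% and 94.2% of a library's values were whole multiples of 1 read, to within 0.05 reads. Rn45s, 26.8% to 33.2% of the total in 3 libraries and listed at 0 in B7, was left out.

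Rows were named through RefSeq symbols, then GENCODE M21, then RefSeq synonyms, and 559 names whose gene did not overlap the row were refused. Rows of the 10 factors kept the deposited symbol. limma 3.58.1 (R 4.3.3; trend, robust, two-sided, Benjamini-Hochberg) was run on log2(normalized count + 1) over 9279 genes with a mean of at least 10, with no block. Fold changes on this scale understate changes of low genes. The code was tested on simulated data. Means, ranges and figures used Python 3.11.15, pandas 2.3.3, numpy 2.4.6 and matplotlib 3.10.9. Floors (3 reads) and counting intervals (95%) cover counting error only, since PCR copies are not independent molecules. P-values rest on 2 pools per subset, and limma takes part of the spread of each gene from other genes of like level.

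The 10 factors and all gene and marker lists were chosen with earlier results of these data known. All 10 factors are named, and up to 4 tested genes with the smallest p in each list (a few of these are not reported here), with other genes named after their values were seen (the exceptions of the T-bet list, granule genes, recirculation genes, Il18rap, Zeb1, Il10, Bhlhe41, Cd4 and Cd8a). The voom fit on estimated reads and the paired RUNX motif were added after the data had been seen. Marker lists for αβ T cells (0 of 3 tested genes higher or lower), B and plasma cells (1 higher, 1 lower, 2 not past) and macrophages (1 higher, 1 not past) were counted the same way.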

Additional observations from a re-analysis of the deposited data

How the results depend on the processing

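Across the 9279 genes, PLZF+ cells had 229 higher and 462 lower. In FPKM these were 109 and 245, and without the trend and robust fit 28 and 184. With the column letter (A or B) as a term 426 were higher and 693 lower, and 4 factors were lower. Leaving out 1 library at a time gave 20 to 237 higher and 98 to 266 lower. Of the 10 factors, the 4 lower ones became 2 with no minimum level, 2 with a minimum mean of 50 (which left Prdm1, Zfp683 and Zeb2 untested), 2 by the authors' deposited Cuffdiff table, 0 in FPKM, 0 without the trend and robust fit, and 0 to 1 with a library left out. None was higher under any of these. The cause of these moves was not tested, apart from the genes left untested and the fewer samples. Direction changed on leaving out a library for Prdm1 (-1.01 to 0.095), Runx1 (-0.66 to 0.12), Runx2 (-0.98 to 0.45), Runx3 (-0.37 to 0.85) and Cbfb (-0.90 to 0.30), all not past in the full set. The log2 fold changes of Tbx21, Zfp683, Zeb2 and Bhlhe40 stayed below 0 under all alternatives run. Zfp683 no longer passed with a pseudocount of 0.25 (adjusted p = 0.059) or with voom on estimated reads (adjusted p = 0.10), and ranged from 0.0021 to 0.11 over alternatives that kept all libraries; these ranges were 0.00018 to 0.14 for Tbx21, 0.00018 to 0.33 for Bhlhe40 and 0.0057 to 0.28 for Zeb2. Scaling to equal totals moved the median of all genes by 0.107 on the log2 scale. No paired analysis was possible because the table columns carry no replicate number; the fit with the column letter sets A7 beside A6 and B7 beside B6, but no label says that a letter marks a pair. Where the lone library of a subset remained, its spread was taken from the other subset. Among list genes given with values, those that no longer passed without the trend and robust fit included Il18r1, Il18rap, Hipk2, Lat, Cd3e, Itgb7, Itga1, Cxcr6, Klrg1, Sox13 and Irf8 (adjusted p 0.056 to 0.35), and with no minimum level Il18r1 (0.062), Cd3e (0.061) and Itgb7 (0.077). Zbtb16 did not pass without the trend and robust fit (adjusted p = 0.10). Depth limits Eomes, Zfp683 and Zeb2, which rest on few reads.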
